A study of Mus musculus with 6 samples.

Results

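The 10 genes described here encode proteins of the basement membrane, the thin sheet of matrix that surrounds each smooth muscle cell of the aortic wall. They are Tinagl1, the laminin alpha chain genes Lama2, Lama4 and Lama5, the laminin beta chain genes Lamb1 and Lamb2, the laminin gamma chain gene Lamc1, the nidogen genes Nid1 and Nid2, and Hspg2, which encodes perlecan. They were taken as the rows of the expression table whose symbol equals one of these names, 10 of 18112 genes in all. Tinagl1 was chosen by its strong rise in the SMYD2 KO columns, so its difference between the groups is given as a description with no test. The other 9 genes were listed for their place in the basement membrane, but with earlier results of these data known. All 10 passed the filter used for the test, a mean of at least 0.5 FPKM over the 6 libraries.

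A laminin molecule is a cross-shaped trimer of 1 alpha, 1 beta and 1 gamma chain. The alpha chain carries the domains that bind cell surface receptors such as integrins and dystroglycan, the trimers polymerise into a network, and nidogens and perlecan link that network to type IV collagen. In muscle the alpha2 chain is the main partner of dystroglycan, and the loss of Lama2 causes a muscular dystrophy. Lama4 and Lama5 encode the alpha chains best known from the walls of blood vessels. Tinagl1 encodes tubulointerstitial nephritis antigen-like 1, a secreted matricellular protein related to cathepsin B that is bound to basement membranes and is expressed in vascular smooth muscle.

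RNA was sequenced from primary aortic smooth muscle cells of 2 genotypes of C57BL/6 mice, with 3 libraries for each, to compare the transcriptome with and without the lysine methyltransferase SMYD2. The cells were grown from the medial layer of the thoracic aorta after removal of the endothelium and the adventitia. The labels give cells at passage 6 in medium with 10% serum, whereas the methods of the study give an earlier passage and overnight starvation, and these accounts were not reconciled here. The values are FPKM, in which a fragment count is divided by transcript length and library depth, so that levels of different genes may be compared per length. The Flox group was homozygous for a Smyd2 allele with loxP sites around 1 exon (Smyd2 fl/fl) and carried no Cre. The SMYD2 KO group was homozygous for the same allele and carried Cre driven by the promoter of Tagln, also called SM22 alpha (Smyd2 SMC-/-), which is also active in some other cell types. The methods give littermates as controls and 1 age range for the mice of both groups. Nothing states from which mice or cultures the replicates came, so the p-values measure the spread between these libraries, which may be technical in part.

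The spacing of the lowest FPKM values gave approximate depths of 18500000, 20000000 and 19250000 fragments in Flox replicates 1, 2 and 3, and of 17200000, 19450000 and 18800000 fragments in SMYD2 KO replicates 1, 2 and 3. Smyd2 itself had 7.87, 3.10 and 3.0 FPKM in Flox and 1.67, 0.40 and 0.80 FPKM in SMYD2 KO. Each SMYD2 KO library lay below each Flox library, with RNA left in all of them, and Flox replicate 1 was above the others of its group. The log2 difference of Smyd2 was −1.48 (SE 0.389, adjusted p = 0.105 in limma), and a block for the replicate number brought the adjusted p in limma to 0.0189. The deleted exon is a part of the transcript, so the level of the whole gene is a partial check of the labels. The antisense gene Gm37422 shares 814 exonic bases with Smyd2 and Gm48682 shares 143 with Nid1, and with no strand stated their reads cannot be separated from those of Smyd2 and Nid1. The replicate 1 libraries of both groups stood apart from the other libraries. Across genes, Spearman's rho between Flox replicate 1 and SMYD2 KO replicate 1 was 0.931, close to the 0.930 and 0.934 that Flox replicate 1 had with the replicates of its own group. Results on the 9 tested genes are therefore also given for replicates 2 and 3 alone. That fit has only 2 libraries per group, and these were very close, with a rho of 0.992 in Flox and 0.989 in SMYD2 KO. Its small p-values rest on this narrow spread, and whether replicates 2 and 3 are independent cultures is not stated.

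The differences among the 10 genes went both ways. Lama2 fell in SMYD2 KO, Lama5, Lamb1, Lamc1 and Nid2 were higher in every SMYD2 KO library than in any Flox library, and the groups overlapped for Lama4, Lamb2, Nid1 and Hspg2. In limma on log2(FPKM + 1) with all 6 libraries, 1 of the 9 genes other than Tinagl1 was lower at an adjusted p under 0.05 (Lama2) and 0 were higher. Of all 12565 genes tested, 1.21% were lower and 1.23% higher by the same rule. When limma was given the replicate number as a block, 3 of the 9 were higher (Lama5, Lamb1 and Nid2) and 1 was lower, where 4.72% of all genes tested were higher and 5.72% lower. In replicates 2 and 3 alone, 5 were higher (these 3 genes, Lamb2 and Lamc1) and 1 was lower, where 11.9% and 17.2% of all genes were. The groups did not overlap for 4 of the 9 genes on the higher side and 1 on the lower, beside 13.1% and 15% of all genes tested. The median log2 difference of the 9 genes was 0.18, beside −0.02 over all genes, and in replicates 2 and 3 alone it was 0.44, beside −0.06. Of all genes, 154 were higher and 152 lower, so that 50.3% of the calls were higher. After rescaling the values to TPM, a common total per library, 247 were higher and 99 lower (71.4% higher), with the median over all genes moved by 0.113.

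**Figure D1:**
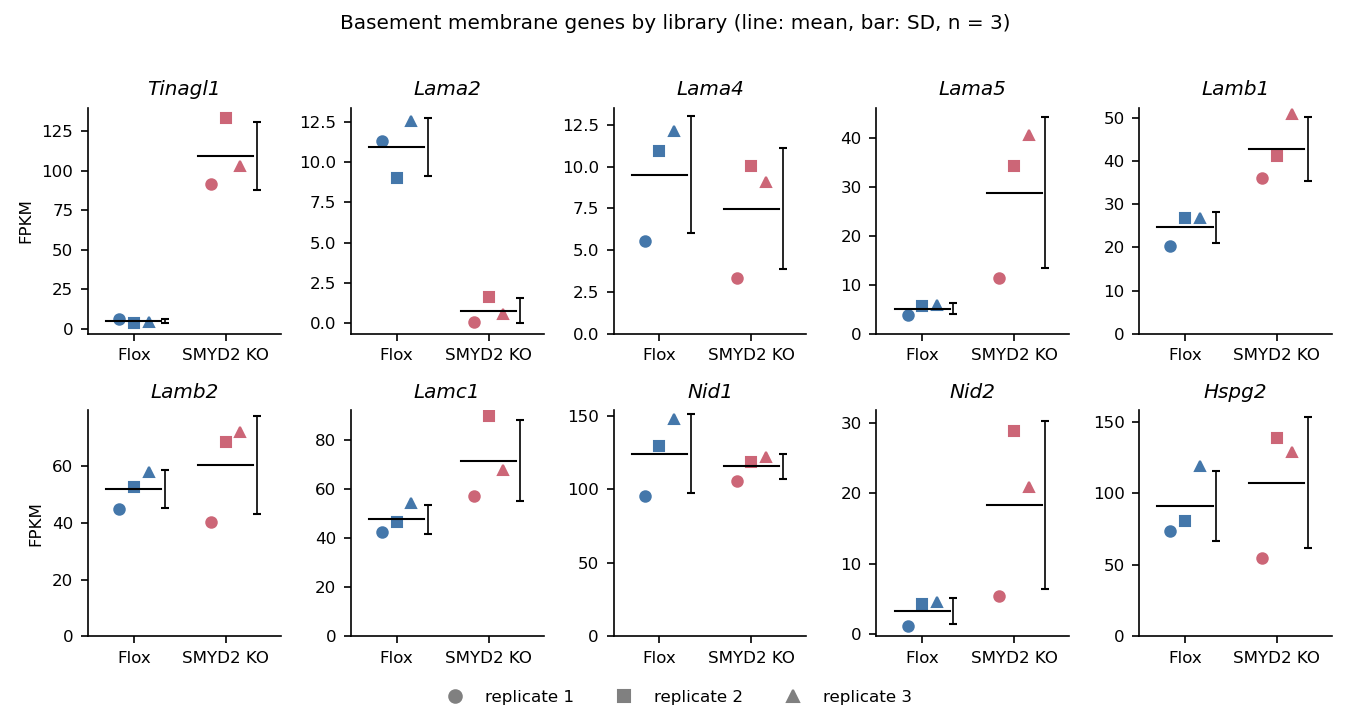
FPKM of the 10 genes in each of the 6 libraries, with Flox in blue and SMYD2 KO in red, the replicate number by symbol, the mean as a line and the SD as a bar (n = 3). Tinagl1 sits between 3.37 and 5.92 FPKM in Flox and between 91.65 and 133.39 FPKM in SMYD2 KO, and Lama2 goes from at least 9.01 FPKM in Flox to at most 1.61 FPKM in SMYD2 KO.

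Tinagl1 (NCBI Gene number 94242) lies on the minus strand of chromosome 4, from 130164454 to 130175122 in the GENCODE annotation of GRCm38, which supplies the positions given here because the deposited table has none. The RefSeq promoter table of GRCm38.p6 held entries for 7 of the 10 genes, with 2 starts for Tinagl1. The 250 bases before 3 of these starts are shown, because Tinagl1, Lama2 and Lama5 have the largest differences of the genes that have an entry. Capitals mark matches to the motifs searched on both strands, which were the TATA box (TATAAA), the Sp1 form (GGGCGG), the AP-1 form (TGANTCA) and the CArG box, the name of a 10-base motif bound by serum response factor. The window of the upstream start of Tinagl1, chr4:130175123-130175372 on the minus strand, overlaps no annotated exon.
Tinagl1: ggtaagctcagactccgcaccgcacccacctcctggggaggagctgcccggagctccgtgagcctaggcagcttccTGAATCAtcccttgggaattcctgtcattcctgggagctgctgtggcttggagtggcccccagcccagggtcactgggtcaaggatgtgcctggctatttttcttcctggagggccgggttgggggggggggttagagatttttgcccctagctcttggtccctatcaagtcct
It holds 1 match to TGANTCA, beginning 174 bases before the start, and no match to the other motifs. TGANTCA was matched in 6.75% of the 32851 promoter windows of this length, GGGCGG in 32.7%, TATAAA in 12.4% and the CArG box in 1.47%. The window before the other start of Tinagl1 holds 4 matches to GGGCGG and overlaps an annotated exon of the gene itself. A match is a description of the letters and not a site.

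The level of Tinagl1 was 5.92, 3.37 and 4.28 FPKM in Flox replicates 1, 2 and 3 and 91.65, 133.39 and 103.21 FPKM in SMYD2 KO replicates 1, 2 and 3. All 3 SMYD2 KO libraries were far above all 3 Flox libraries, and replicate 1 was the highest of Flox and the lowest of SMYD2 KO. The means were 4.52 ± 1.29 FPKM (SD, n = 3) in Flox and 109 ± 21.6 FPKM (SD, n = 3) in SMYD2 KO, a ratio of 24.2. Within the same-numbered pairs the ratio was 15.5, 39.6 and 24.1. On the transcript of 1976 bases these levels correspond to about 128 to 208 fragments in a Flox library and 2997 to 4932 in a SMYD2 KO library. The log2 difference was 4.33 on the log2(FPKM + 1) scale, a scale that understates the change of genes with a low FPKM in either group. In the order of mean levels of the 10 genes, Tinagl1 was ninth in Flox, where its range overlapped those of Lama5 above it and Nid2 below it. In SMYD2 KO it came between Nid1 and Hspg2 at the top, and its range overlapped those of both.

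The laminin alpha chains were where the genotypes differed most in composition. Lama2 (16773), on the minus strand of chromosome 10 from 26980036 to 27619758, had 11.29, 9.01 and 12.55 FPKM in Flox and 0.09, 1.61 and 0.60 FPKM in SMYD2 KO replicates 1, 2 and 3. Lama2 was the most abundant alpha chain in Flox on average, although Lama4 was above it in Flox replicate 2 (10.91 against 9.01 FPKM). In SMYD2 KO Lama2 was the least abundant of the 3 listed ones, and its groups did not overlap. About 1719 to 2311 fragments stood behind the Flox values on a transcript of 9614 bases, and about 15, 299 and 108 behind the SMYD2 KO values. The means were 10.95 ± 1.79 FPKM and 0.767 ± 0.774 FPKM (SD, n = 3 each). The log2 difference was −2.84 (SE 0.331, adjusted p = 0.0135 in limma). This call was lost without Flox replicate 2 (adjusted p = 0.0703 in limma), Flox replicate 3 (0.0867) or SMYD2 KO replicate 3 (0.0778), with a difference between −3.17 and −2.54 over the 6 fits that leave out 1 library. At a pseudocount of 0.1 the log2 difference was −4.165 (adjusted p = 0.0462 in limma). In replicates 2 and 3 alone the log2 difference was −2.51 (adjusted p = 0.00122 in limma). In bulk RNA, fewer cells that express Lama2 and less Lama2 RNA per cell cannot be told apart. An antisense gene with 631 exonic bases in common with Lama2, Gm48084, is annotated on the other strand, and since no source gives the strand of the libraries, its reads could not be separated from those of Lama2.

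The RefSeq start of Lama2 lies inside the span that GENCODE gives to the gene, and the window before it, chr10:27616943-27617192 on the minus strand, overlaps no annotated exon.
Lama2: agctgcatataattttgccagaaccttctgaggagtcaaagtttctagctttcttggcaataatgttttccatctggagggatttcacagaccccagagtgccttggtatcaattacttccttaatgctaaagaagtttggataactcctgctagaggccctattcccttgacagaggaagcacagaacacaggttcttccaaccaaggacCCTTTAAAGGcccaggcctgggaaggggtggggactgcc
It holds 1 CArG box, beginning 39 bases before the start, and no match to the other motifs. Its GC content was 47.2% with 0 CpG, beside medians of 52.4% and 6 CpG over all promoter windows. The window before Lama5, chr2:180225860-180226109 on the minus strand, is shown beside it as that of the alpha chain with the opposite difference, and it too overlaps no annotated exon.
Lama5: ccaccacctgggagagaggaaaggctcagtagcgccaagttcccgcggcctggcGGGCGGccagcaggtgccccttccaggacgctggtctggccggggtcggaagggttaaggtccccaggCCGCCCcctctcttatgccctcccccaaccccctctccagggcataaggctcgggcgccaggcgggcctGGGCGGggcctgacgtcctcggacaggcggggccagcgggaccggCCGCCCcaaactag
It holds 4 matches to GGGCGG and none to the other motifs, with a GC content of 72.4% and 19 CpG. Nothing about the factors that bind these letters was measured.

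Lama5 (16776), on the minus strand of chromosome 2 from 180176373 to 180225859, had 3.81, 5.59 and 5.87 FPKM in Flox and 11.38, 34.41 and 40.71 FPKM in SMYD2 KO. Every SMYD2 KO library was above every Flox library, and replicate 1 was the lowest of its group in both genotypes. The means were 5.09 ± 1.12 and 28.8 ± 15.4 FPKM (SD, n = 3 each), a ratio of 5.67, and the ratios within the pairs were 2.99, 6.16 and 6.94. The log2 difference was 2.13 with an SE of 0.460 (adjusted p = 0.0683 in limma), which did not pass the threshold. A block for the replicate number gave an SE of 0.263 and an adjusted p of 0.0210 in limma. Without SMYD2 KO replicate 1 the adjusted p in limma was 0.00480, in the other 5 fits that leave out 1 library it was 0.129 to 0.234, and in replicates 2 and 3 alone the log2 difference was 2.51 (1.76e-05 in limma).

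Lama4 (16775), on chromosome 10 from 38965515 to 39110188, had 5.53, 10.91 and 12.15 FPKM in Flox and 3.33, 10.03 and 9.10 FPKM in SMYD2 KO. The groups overlapped, and the low values were those of replicate 1 in both. Its log2 difference was −0.36, with a 95% interval from −1.40 to 0.67 (adjusted p = 0.706 in limma), and in replicates 2 and 3 alone it was −0.25 (0.147 in limma). The sign turned without SMYD2 KO replicate 1, at 0.067.

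Set against each other within a library, the alpha chains changed places. Lama2 made up 54.6%, 34.5% and 40.3% of the summed FPKM of the 5 laminin alpha chains in Flox and 0.523%, 3.47% and 1.18% in SMYD2 KO. Lama5 made up 18.4%, 21.4% and 18.8% in Flox and 66.1%, 74.2% and 80.3% in SMYD2 KO, replicate 1 included. The mean share of Lama4 was 35.8 ± 8.02% and 19.6 ± 1.86% (SD, n = 3 each), also without overlap of the groups. Lama1 stayed at or under 2.07% except in SMYD2 KO replicate 1, where 2.35 FPKM gave it 13.7%, and Lama3 was at 0.561% or less. For Lama2, Lama4 and Lama5 the two-sided exact permutation test over the 6 libraries gave p = 0.1, the smallest that 3 against 3 allow (0.188 after Benjamini-Hochberg adjustment over the 15 shares and ratios computed). The sum of the alpha chains itself was 20.7, 26.1 and 31.2 FPKM in Flox and 17.2, 46.4 and 50.7 FPKM in SMYD2 KO, so that it was lower in SMYD2 KO in the replicate 1 pair and higher in the other pairs.

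**Figure D2:**
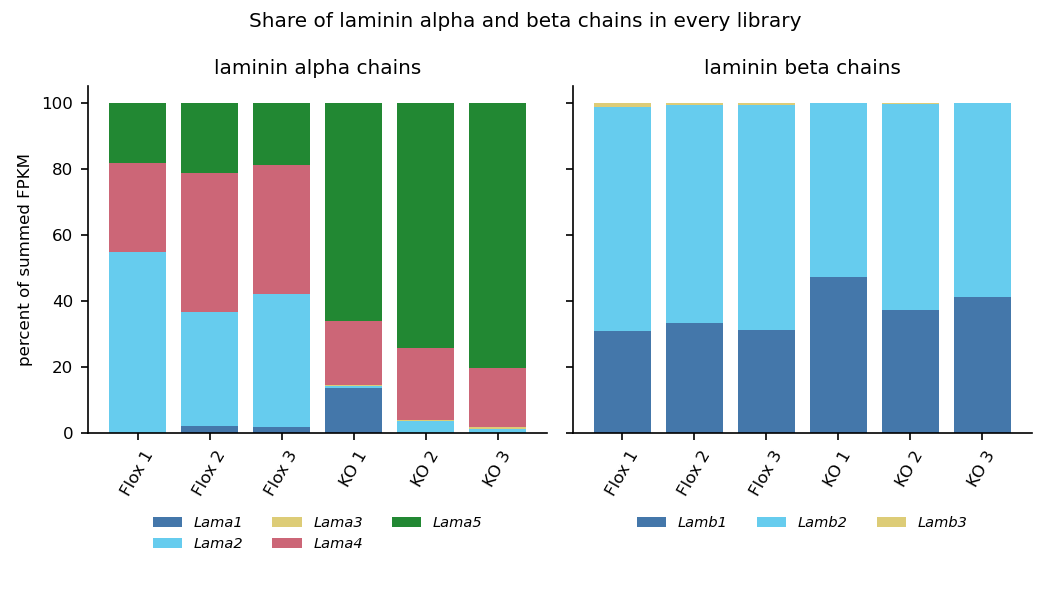
Share of each laminin alpha and beta chain in the summed FPKM of its kind (percent, y axis) in each of the 6 libraries, with alpha and beta chains in separate panels. Lama5 fills 66.1% or more of the alpha bar in each SMYD2 KO library and 21.4% or less in each Flox library, and Lamb1 fills 33.4% or less of the beta bar in Flox and 37.3% or more in SMYD2 KO.

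The laminin beta chains showed a smaller difference of the same kind. Lamb1 (16777), on chromosome 12 from 31265234 to 31329644, had 20.43, 26.72 and 26.83 FPKM in Flox and 36.21, 41.20 and 50.90 FPKM in SMYD2 KO, with all SMYD2 KO libraries above all Flox libraries. Its log2 difference was 0.77 (SE 0.178, adjusted p = 0.0793 in limma), and the adjusted p in limma was 0.0239 with a replicate block and 0.00396 in replicates 2 and 3 alone. Lamb2 (16779), the gene of the beta chain known from vessel walls and neuromuscular junctions, lies on chromosome 9 from 108479736 to 108490530 and had 44.97, 52.86 and 58.08 FPKM in Flox and 40.47, 68.74 and 72.25 FPKM in SMYD2 KO. The groups overlapped through replicate 1 (log2 difference 0.18, 95% interval from −0.40 to 0.76, adjusted p = 0.747 in limma), and in replicates 2 and 3 alone the difference was 0.34 (adjusted p = 0.0434 in limma). Lamb1 accounted for 31.9 ± 1.32% of the summed beta chain FPKM in Flox and 41.9 ± 4.97% in SMYD2 KO (SD, n = 3 each), and Lamb2 for most of the rest in every library. The exact permutation test of the Lamb1 share gave p = 0.1 as well (two-sided, 0.188 after adjustment over the 15).

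Lamc1 (226519), the gamma chain gene of most laminins, lies on the minus strand of chromosome 1 from 153218922 to 153332786, on the same chromosome as Smyd2. It had 42.37, 46.62 and 54.06 FPKM in Flox and 57.15, 89.50 and 67.45 FPKM in SMYD2 KO. The lowest SMYD2 KO library was just above the highest Flox library, and the log2 difference of 0.55 did not pass the threshold (SE 0.194, adjusted p = 0.182 in limma, or 0.0752 with a replicate block). In replicates 2 and 3 alone it was 0.62 (adjusted p = 0.0208 in limma).

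The nidogens, which join the laminin network to type IV collagen, differed from each other. Nid1 (18073), on chromosome 13 from 13437551 to 13512269, was the most abundant of the 10 genes on average in both groups, with 95.30, 129.40 and 147.76 FPKM in Flox and 105.77, 118.75 and 122.00 FPKM in SMYD2 KO. The SMYD2 KO values lay within the range of Flox (log2 difference −0.08, 95% interval from −0.52 to 0.36, adjusted p = 0.855 in limma), and the sign of the Nid1 difference turned to 0.041 on values rescaled to TPM. The Nid1 difference in replicates 2 and 3 alone was −0.20 (adjusted p = 0.233 in limma). Nid2 (18074), on chromosome 14 from 19751265 to 19811787, had 1.17, 4.26 and 4.60 FPKM in Flox and 5.45, 28.93 and 20.87 FPKM in SMYD2 KO. Each SMYD2 KO library was above each Flox library, but SMYD2 KO replicate 1 was close to Flox replicates 2 and 3. The log2 difference was 2.02 (SE 0.641, adjusted p = 0.153 in limma). A replicate block gave an SE of 0.203 and an adjusted p of 0.0141 in limma, and without SMYD2 KO replicate 1 the adjusted p in limma was 0.0357, beside 0.267 to 0.404 in the other 5 fits that leave out 1 library. In replicates 2 and 3 alone the difference was 2.24 (9.84e-05 in limma). The ratios within the pairs were 4.66, 6.79 and 4.54. Nid2 made up 2.47 ± 1.10% of the summed nidogen FPKM in Flox and 13.0 ± 7.47% in SMYD2 KO (SD, n = 3 each). The two-sided exact permutation test of this share gave p = 0.1, or 0.188 after adjustment over the 15 shares and ratios. Nid2 shares 437 exonic bases with Rtraf on the other strand, which had 60.88, 101.25 and 78.61 FPKM in Flox and 70.22, 82.47 and 72.96 FPKM in SMYD2 KO, so that part of the reads assigned to Nid2 could belong to Rtraf. The levels of Rtraf overlapped between the groups.

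Hspg2 (15530), the gene of perlecan, the heparan sulfate proteoglycan of basement membranes, lies on chromosome 4 from 137468769 to 137570630 and had 73.93, 80.56 and 119.31 FPKM in Flox and 55.00, 138.55 and 128.98 FPKM in SMYD2 KO. The groups overlapped, and SMYD2 KO replicate 1 was the lowest library of all (log2 difference 0.16, 95% interval from −0.76 to 1.07, adjusted p = 0.872 in limma). The Hspg2 difference in replicates 2 and 3 alone was 0.44, with a 95% interval from 0.016 to 0.87 (adjusted p = 0.111 in limma). In the order of mean levels in Flox, Nid1 and Hspg2 overlapped at the top, Lamb2 and Lamc1 overlapped below them, Lamb1 stood alone, and Lama2, Lama4, Lama5, Tinagl1 and Nid2 each overlapped with the next. In SMYD2 KO the order was Nid1, Tinagl1, Hspg2, Lamc1, Lamb2, Lamb1, Lama5, Nid2, Lama4 and Lama2, and of these neighbours only Lama4 and Lama2 did not overlap.

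**Figure D3:**
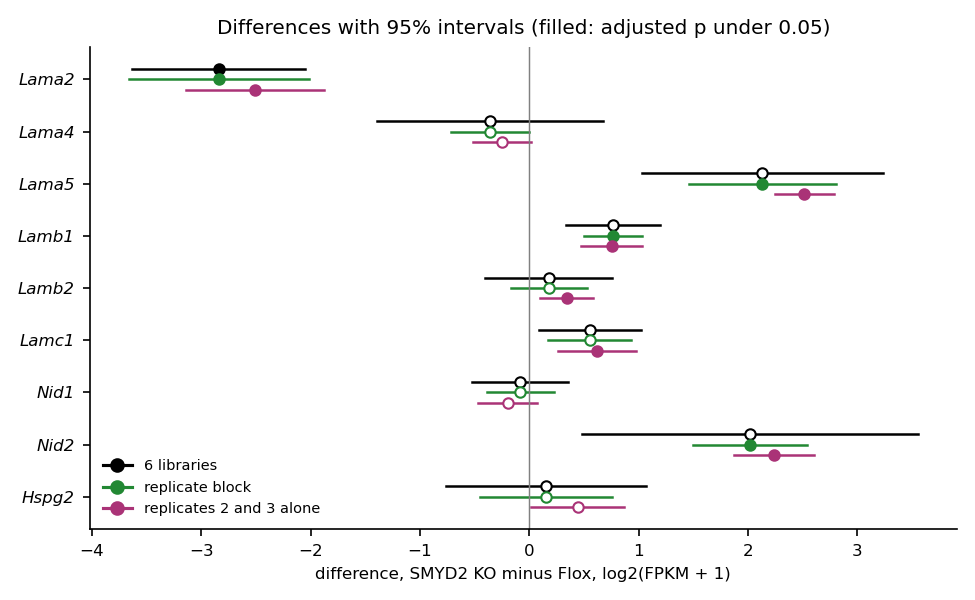
Difference between SMYD2 KO and Flox on log2(FPKM + 1) (x axis) for the 9 genes other than Tinagl1, with 95% intervals, for all 6 libraries, with the replicate block, and for replicates 2 and 3 alone; filled points have an adjusted p under 0.05. Lama2 lies at −2.84 with all 6 libraries and is filled in all 3 fits, while Lama5 (2.13), Lamb1 (0.77) and Nid2 (2.02) are filled with the block and in replicates 2 and 3 alone.

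Other genes of the basement membrane were read from the same fit, from 8 lists that hold 72 genes outside the 10, of which 70 were in the table and 61 were tested. These lists too were chosen with earlier results of these data known, so their counts beside all genes are a description. Of these 61 genes, 2 were higher and 0 were lower at an adjusted p under 0.05 in limma, and their median log2 difference was 0.32, beside −0.02 over all genes. The main test called 1.23% of all genes higher and 1.21% lower. With the replicate block 13 of the 61 were higher and 1 was lower, beside 4.72% and 5.72% of all genes. In replicates 2 and 3 alone 22 were higher and 6 lower, beside 11.9% and 17.2% of all genes. The 2 genes called were Smoc2 and Fbln1. Smoc2, a calcium-binding matricellular protein, had 6.46, 4.02 and 3.19 FPKM in Flox and 25.04, 29.74 and 72.14 FPKM in SMYD2 KO (log2 difference 2.85, SE 0.422, adjusted p = 0.0270 in limma). Fbln1, the gene of fibulin-1, was low, with 0.14, 0.11 and 0.13 FPKM in Flox and 1.06, 1.54 and 1.96 FPKM in SMYD2 KO (log2 difference 1.15, SE 0.194, adjusted p = 0.0414 in limma). Its log2 difference was 2.8 at a pseudocount of 0.1 and 1.88 after rescaling to TPM. Of the 6 fits that leave out 1 library, Smoc2 was called without Flox replicate 1 or SMYD2 KO replicate 1, and Fbln1 without SMYD2 KO replicate 1; leaving out any other library took the adjusted p in limma to between 0.0549 and 0.130 for Smoc2 and between 0.0674 and 0.181 for Fbln1. The Fbln1 call was also lost with the trend over transcript length removed (adjusted p = 0.0531 in limma). With the block, but not in the main test, Smoc1 (20.25, 66.94 and 56.82 against 81.24, 148.27 and 176.08 FPKM, adjusted p = 0.0177 in limma) and Ntn4 (0.81, 6.70 and 6.95 against 10.97, 34.32 and 24.16 FPKM, 0.0141) were also called higher, without overlap of the groups. All 4 belong to the list of other basement membrane components, where the genes with the highest means were Sparc, with 596 to 1197 FPKM in Flox and 1006 to 1611 FPKM in SMYD2 KO, and Fbln2, with 381 to 602 and 365 to 1032 FPKM, and the groups overlapped for both.

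The 6 type IV collagen chains, the covalent scaffold of the sheet, had 0 genes called in limma with all libraries or with the block, and a median log2 difference of 0.08. Col4a1 had 222.36, 155.02 and 171.26 FPKM in Flox and 39.76, 110.37 and 83.93 FPKM in SMYD2 KO, without overlap (log2 difference −1.32, SE 0.372, adjusted p = 0.121 in limma). In replicates 2 and 3 alone 2 of the 6 chains were higher and 1 was lower in limma, beside 11.9% and 17.2% of all genes. The lower one was Col4a1 (−0.75, adjusted p = 0.00914 in limma), and the higher ones were Col4a3 (1.24, 0.00152) and Col4a4 (1.93, 1.7e-04), which had at most 1.12 FPKM in Flox and 2.38 to 7.64 FPKM in SMYD2 KO replicates 2 and 3, but at most 0.17 FPKM in SMYD2 KO replicate 1. Col4a2 was lower in SMYD2 KO without overlap too, with 146.22, 91.73 and 102.88 against 31.44, 83.69 and 61.71 FPKM (log2 difference −1.01, adjusted p = 0.197 in limma). Col4a5 had 65.75 to 104.99 FPKM in Flox and 74.98 to 124.70 FPKM in SMYD2 KO. Among laminin chains outside the 10, Lama1 had at most 0.60 FPKM in 5 of the 6 libraries. Lamb3 had 0.53 to 0.80 FPKM in Flox and 0.07 to 0.49 FPKM in SMYD2 KO, Lama3 had 0.26 FPKM or less, and Lamc3 was listed near 0.

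Of the 13 receptors for laminins and other basement membrane proteins, 12 were tested, and 11 of these had a positive and 1 a negative difference, with a median of 0.65, beside 6032 positive and 6533 negative over all genes. None was called in the main test, where Itga3 was just above the threshold (adjusted p = 0.0507 in limma, 0.0382 on TPM and 0.0497 at a pseudocount of 0.1). With the replicate block 4 of the 12 were higher in limma, beside 4.72% of all genes, at an adjusted p of 0.0282 for Dag1, 0.0485 for Itga1, 0.0357 for Itga3 and 0.0225 for Ddr1. Of the 12, 7 were higher and 0 lower in replicates 2 and 3 alone, beside 11.9% and 17.2% of all genes. The Itga1 call was lost in that fit (adjusted p = 0.0885 in limma), and with the block when the trend over transcript length was also removed (0.0707). Dag1, the gene of dystroglycan, had 69.27, 95.68 and 103.51 FPKM in Flox and 107.08, 158.83 and 153.66 FPKM in SMYD2 KO, with every SMYD2 KO library above every Flox library (log2 difference 0.64). Itgb1, the beta1 integrin that pairs with the laminin-binding alpha subunits, had 302 to 332 FPKM in Flox and 299 to 335 FPKM in SMYD2 KO (log2 difference 0.03). Smoc1, Ntn4, Itga1, Itga3 and Ddr1 were named after their values were seen. The same holds for the other genes named below for a call with the block but not in the main test.

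Of the 11 enzymes that build the laminin-binding sugar chain of dystroglycan, 10 were tested, with 0 called over all 6 libraries and a median log2 difference of 0.16. Rxylt1, listed in the table as Tmem5, had 44.9 to 52.0 FPKM in Flox and 48.8 to 62.1 FPKM in SMYD2 KO. Of the 5 listed partners of Tinagl1 and its integrin receptors, Fn1, the gene of fibronectin, was at 431, 1418 and 1809 FPKM in Flox and 858, 3392 and 2540 FPKM in SMYD2 KO, low in replicate 1 of both groups (log2 difference 0.91, adjusted p = 0.532 in limma, or 0.0411 with the block), and its difference was 0.28 to 1.5 when 1 library was left out. Of these 5 genes 0 were called in the main test, and 1 was higher and 0 lower with the block, beside 4.72% and 5.72% of all genes. In replicates 2 and 3 alone 3 of the 5 were higher and 1 lower, beside 11.9% and 17.2% of all genes. Of the 7 assembly enzymes and chaperones, Plod3 (0.0204) and Loxl2 (0.0393) were called with the block, both higher (adjusted p in limma; 4.72% of all genes were), and Loxl2 was not called in replicates 2 and 3 alone (0.0675). P4hb and Serpinh1, the collagen chaperone HSP47, were the most abundant of them. Serpinh1 had 256 to 405 FPKM in Flox and 418 to 606 FPKM in SMYD2 KO. P4hb had 363 to 481 and 329 to 511 FPKM. Of the 8 proteases, 7 were tested, and with the block Bmp1 was higher (adjusted p = 0.0485 in limma) and Adamts1 lower (0.0371), 1 of the 7 each way beside 4.72% and 5.72% of all genes, and the Bmp1 call was lost with the length trend also removed (0.0539). Ctsb (394 to 634 and 502 to 808 FPKM) and Mmp14 (171 to 322 and 332 to 344 FPKM) were the most abundant.

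**Figure D4:**
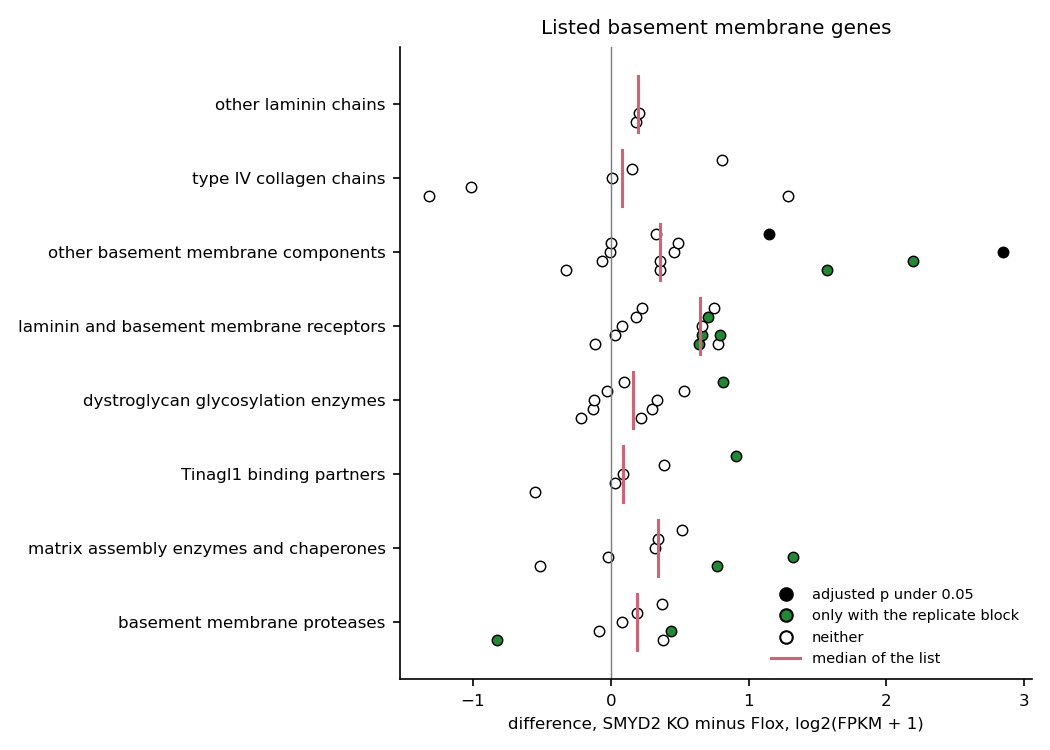
Difference between SMYD2 KO and Flox on log2(FPKM + 1) (x axis) for the tested genes of the 8 lists (rows, with Itgb1 in 2 of them), with the median of each list as a red line. Black points have an adjusted p under 0.05 in the main test with all 6 libraries, and green points with the replicate block but not in the main test. The 2 black points are Smoc2 (2.85) and Fbln1 (1.15), and the receptors have the highest median of the 8 lists, 0.65.

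Markers of the cell types that an aortic culture could hold were read in the same libraries. Of the 9 smooth muscle markers, 3 (Myh11, Des and Myocd) were under 0.5 FPKM in every library, and the list summed to 923, 825 and 818 FPKM in Flox and 265, 436 and 386 FPKM in SMYD2 KO. Its most abundant gene, Acta2, was lower in SMYD2 KO, with 761, 682 and 683 against 201, 268 and 262 FPKM (log2 difference −1.55, SE 0.153, adjusted p = 0.00803 in limma), and the call was lost without Flox replicate 2 (0.0541), Flox replicate 3 (0.0615) or SMYD2 KO replicate 3 (0.0533). The adventitial fibroblast markers, of which 8 of 8 were tested, summed to 301, 919 and 785 FPKM in Flox and 81.4, 572 and 518 FPKM in SMYD2 KO. In the main test 1 of the 8 was lower (Dpt), beside 1.21% of all genes. With the block 3 were lower (Dpt, Cd34 and Ly6a) and 0 higher, beside 5.72% and 4.72% of all genes. In that list Ly6a had the highest mean in Flox and Dcn in SMYD2 KO, and Dcn had 13.88 and 25.59 FPKM in the replicate 1 libraries and 257 to 383 FPKM in the others. Dpt fell from 143.88, 90.32 and 65.50 FPKM to 3.31, 1.15 and 0.63 FPKM (log2 difference −5.28, SE 0.427, adjusted p = 0.00417 in limma), a call kept whichever library was left out. The other markers of these lists did not all follow Acta2 and Dpt. Cd34 (71.09 to 98.24 against 3.39 to 23.57 FPKM) and Pdgfra (18.08 to 31.85 against 4.85 to 11.82 FPKM) were lower in SMYD2 KO without overlap, and Tagln, Cnn1 and Smtn overlapped between the groups. Lum (2.57, adjusted p = 7.4e-05 in limma), Lmod1 (0.83, 0.00335) and Mylk (0.99, 0.00335) were higher in replicates 2 and 3 alone. In that fit 5 of the 8 adventitial markers were lower (Pdgfra, Dpt, Ly6a, Pi16 and Cd34) and 1 was higher, and 1 of the 6 tested smooth muscle markers was lower and 2 were higher, beside 17.2% lower and 11.9% higher of all genes. These markers, like Wt1 below and Col4a2, Col4a3 and Col4a4 above, were named after their values were seen. The part of the cell composition in the differences of the basement membrane genes was not tested.

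The endothelial markers Cdh5, Tek, Tie1 and Erg were listed at or near 0 and the list summed to 2.15 to 2.76 FPKM in Flox and 2.69 to 5.84 FPKM in SMYD2 KO. Kdr was most of the sum only in SMYD2 KO replicates 2 and 3 (5.15 and 2.96 FPKM), and Pecam1 had 0.56 to 0.92 FPKM in Flox and at most 0.18 FPKM in SMYD2 KO. The epithelial and mesothelial list summed to 59.4, 137 and 133 FPKM in Flox and 26.9, 165 and 92.5 FPKM in SMYD2 KO, with Krt19 (47.82, 57.64 and 54.31 FPKM) as its most abundant gene in Flox and Upk3b in SMYD2 KO (9.02, 38.50 and 38.23 FPKM in Flox and 14.46, 120.87 and 67.00 FPKM in SMYD2 KO). In it, Epcam and Krt8 were near 0, and Krt19 was lower in SMYD2 KO (log2 difference −2.10, SE 0.325, adjusted p = 0.0317 in limma), a call that held only without SMYD2 KO replicate 1 or 2 among the fits lacking 1 library (adjusted p in limma 0.0607 to 0.144 in the others). The Krt19 call was also lost with no filter on low FPKM (adjusted p = 0.055 in limma). With the block Upk3b (0.0491) and Wt1 (0.0330) were higher and Krt19 lower (adjusted p in limma), beside 4.72% higher and 5.72% lower of all genes. The Upk3b call was lost with the length trend also removed (adjusted p = 0.0611 in limma). In replicates 2 and 3 alone 2 of the 5 tested were higher and 3 lower, beside 11.9% and 17.2% of all genes. The pericyte list summed to 5.02 to 10.1 FPKM in Flox and 5.78 to 12.5 FPKM in SMYD2 KO, with Rgs5 (3.28, 8.05 and 7.27 FPKM in Flox and 0.71, 5.85 and 0.85 FPKM in SMYD2 KO, log2 difference −1.30) as its most abundant gene in Flox and Notch3 (3.25, 3.17 and 3.35 FPKM) on average in SMYD2 KO. Notch3 was higher in SMYD2 KO (log2 difference 1.05, SE 0.192, adjusted p = 0.0489 in limma), a call lost whichever library was left out (0.0527 to 0.212). The macrophage and leukocyte list, led by Cd68, was between 4.95 and 8.96 FPKM in all libraries, and Ptprc, Adgre1 and Itgam were near 0. In it, Csf1r was higher in SMYD2 KO without overlap (0.48 to 0.58 against 1.14 to 1.66 FPKM), and Lyz2 overlapped between the groups. In replicates 2 and 3 alone 1 of the 3 tested was higher (Csf1r) and 1 lower (Lyz2) in limma, beside 11.9% and 17.2% of all genes. The Schwann and neural crest list summed to 1.28, 2.38 and 1.81 FPKM in Flox and 2.34, 13.3 and 8.49 FPKM in SMYD2 KO, with S100b at 12.69 and 7.40 FPKM in SMYD2 KO replicates 2 and 3 and at most 1.38 FPKM elsewhere, and Sox10 was near 0. The adipocyte list was at 122 FPKM in SMYD2 KO replicate 1, where Fabp4 had 118.57 FPKM, and at 7.50 to 13.0 FPKM in the other libraries, with Adipoq, Plin1 and Cidec near 0.

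**Figure D5:**
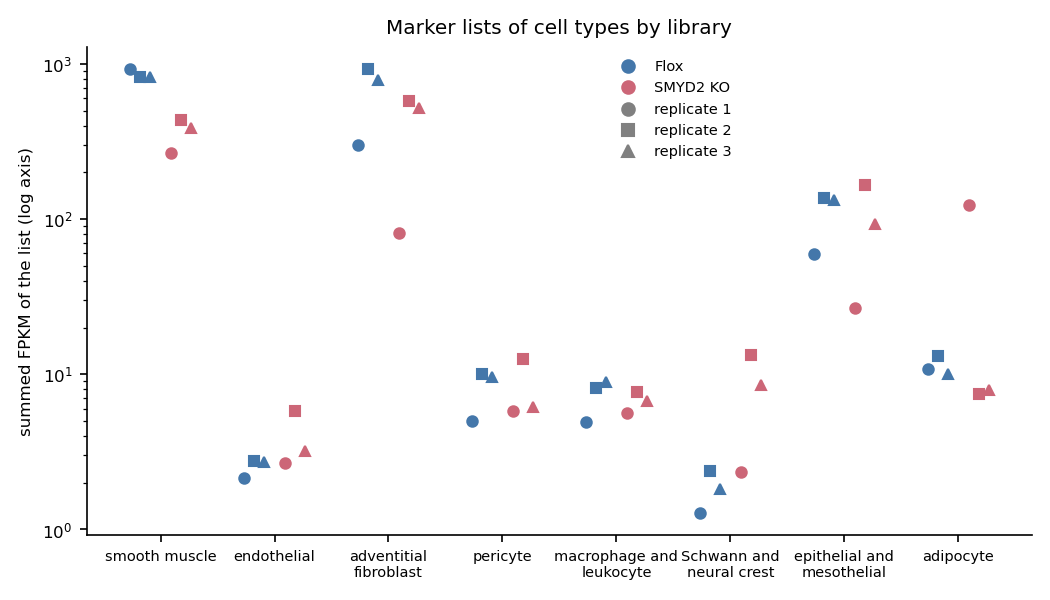
Summed FPKM of each marker list (log axis) in each of the 6 libraries, with Flox in blue and SMYD2 KO in red and the replicate number by symbol. The smooth muscle list is at 818 FPKM or more in Flox and at 436 FPKM or less in SMYD2 KO, and the adipocyte list stands at 122 FPKM in SMYD2 KO replicate 1 alone.

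The genes whose pattern was most like that of Tinagl1 over the 6 libraries, by Pearson's r on log2(FPKM + 1) among the 533 other tested genes with an SD of at least 1, were Pcdhgb4 (r = 0.993), Pcdhga10 (0.993), a transcript that the table lists as BGI_novel_G000641 (0.992), Tfpi (0.990) and Ndn (0.989). The points are 6 libraries in 2 groups, so r mainly reflects the difference between the groups that Tinagl1 was selected on, and no p is given. Ndn, the gene of necdin, had 0.55, 0.76 and 0.71 FPKM in Flox and 10.06, 17.20 and 15.87 FPKM in SMYD2 KO. Pcdhga10, a clustered protocadherin, had 2.73, 2.32 and 2.29 FPKM in Flox and 9.70, 14.37 and 13.56 FPKM in SMYD2 KO. None of the other 9 basement membrane genes was among these 5. Genes with a smaller SD were not compared, and a gene that fell, such as Lama2, could not rank high. The absence of the 9 therefore does not show whether they share the pattern of Tinagl1.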

How the data were processed

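The values are the FPKM deposited by the authors, who cleaned reads with SOAPnuke, aligned with HISAT and Bowtie2 and quantified with RSEM; versions, genome build and strand are not given in the sources used here. The 12565 of 18112 genes whose mean reached 0.5 FPKM were tested in limma 3.58.1 (trend and robust empirical Bayes with statmod 1.5.0, R 4.3.3) on log2(FPKM + 1), with Benjamini-Hochberg adjustment over all tested genes and calls at an adjusted p under 0.05. The plan named one method for counts and another for FPKM; the deposited table holds FPKM, so the latter was used. All value columns were matched to samples (0 unmapped).

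Same-numbered replicates correlated in their deviations (0.61, 0.46 and 0.53), but replicates 2 and 3 also did so across numbers (0.46 and 0.44), and nothing states a pairing, so the replicate number was a block only as an alternative. Other alternatives were a pseudocount of 0.1, no filter, each library left out, replicates 2 and 3 alone, TPM, stricter cutoffs, and a length trend, which was added after seeing the data.

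The genes and lists were chosen with earlier results of these data known. From each list the genes called and the most abundant are named, and others where the text says so. Depth was fitted to the spacing of 366 to 429 low values per library among 4343 single-transcript genes. At the fitted depth 69.6% to 73.2% of those same values lay within 0.15 of a whole fragment, which describes the fit and is no test of it. Some items are withheld and are not reported here. Locations come from GENCODE M21 (GRCm38). The fitting code was tried on simulated data before use. Tables and figures used Python 3.11.15, pandas 2.3.3, numpy 2.4.6 and matplotlib 3.10.9.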

Additional observations from a re-analysis of the deposited data

How the results depend on the processing

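Over the 6 fits that leave out 1 library, 16 to 373 genes of the whole table were higher and 16 to 313 lower, against 154 and 152 with all libraries. With the replicate number as a block 593 were higher and 719 lower, in replicates 2 and 3 alone 1494 and 2156, and after rescaling to TPM 247 and 99. With the trend over transcript length removed, an alternative chosen after seeing the data, and the block they were 650 and 575, and at a fold of 2 with an adjusted p under 0.01 they were 27 and 26. Of the 9 genes, 0 were higher in the main test, 0 to 2 when 1 library was left out, 3 with the block, 5 in replicates 2 and 3 alone and 3 with the length trend removed and the block. The number lower was 1, with 0 to 1 when 1 library was left out and 0 at the stricter cutoffs. Of the wider basement membrane list 2 were higher, with 0 to 7, 13, 22 and 11 in the same order and 0 at the stricter cutoffs. The number lower was 0, with 1 for the block, 6 in replicates 2 and 3 alone and 1 with the length trend removed and the block. The median of that list was 0.32, with 0.17 to 0.38 when 1 library was left out and 0.45 for TPM. The sign of the log2 difference turned for Lama4 (−0.67 to 0.067), Nid1 (−0.26 to 0.053, and 0.041 for TPM) and Hspg2 (−0.081 to 0.58) when 1 library was left out and for Lama1 in replicates 2 and 3 alone (−0.56), without SMYD2 KO replicate 1 (−0.37), without Flox replicate 1 (−0.0086) and at a pseudocount of 0.1 (−0.0040). Among the other named genes that were followed through the fits lacking 1 library, it turned for Dcn (−0.89 to 1.79), Col4a5 (−0.052 to 0.35), Sparc (−0.0050 to 0.50), Itgb1 (−0.0051 to 0.076), P4hb (−0.18 to 0.14) and Cd68 (−0.15 to 0.14). Some named genes, Smtn and Lmod1 among them, were not followed through those fits. The Smtn difference was −0.050 in the main test, 0.052 in replicates 2 and 3 alone and 0.072 for TPM. The cause of these changes of sign was not tested. The log2 difference of Tinagl1 was 4.17 to 4.62 in all settings.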
